A study of Mus musculus with 4 samples.

Results

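The genes described here encode the enzymes and subunits of the complexes that methylate histone H3 on lysine 4 (H3K4). They are 10 named genes, Kmt2a, Kmt2c, Kmt2d, Setd1a, Setd1b, Wdr5, Ash2l, Rbbp5, Dpy30 and Men1, chosen by name. Their values were not part of the rule, although earlier results of these data were known when it was made. All 10 were found among the 18598 genes of the table, and all 10 were among the 14858 genes that were tested.

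The SET-domain enzymes of the KMT2 and SETD1 families add methyl groups to H3K4, and each works together with a shared core of WDR5, RBBP5, ASH2L and DPY30. H3K4 trimethylation marks promoters of active genes and monomethylation marks enhancers. KMT2A, whose partner menin is the product of Men1, is known for maintaining hematopoietic stem cells through HOX and MEIS1 genes. BPTF, the largest subunit of the NURF chromatin remodeling complex, reads H3K4 trimethylation through a PHD finger. The complexes that write trimethylation thus lie before BPTF in the same pathway, while KMT2C and KMT2D mainly write monomethylation.

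RNA was sequenced from LSK cells, the lineage-negative, SCA-1+ and c-KIT+ fraction of the bone marrow that holds hematopoietic stem and progenitor cells. There were 2 libraries from Bptf f/f control littermates (labelled control, here f/f) and 2 from Bptf f/f;Mx1-cre mice (labelled Bptf -/-, here cKO), each made from the pooled LSK cells of 5 mice of the C57BL/6 strain at about 3 months of age. Both genotypes carried the floxed allele and were profiled after pIpC, the interferon inducer that turns on Mx1-cre. The Mx1 promoter is not restricted to LSK cells, and cre also acts in other interferon-responsive cells. The comparison asks whether the RNA of the H3K4 methylation machinery differed when Bptf, which encodes a reader of H3K4 trimethylation, was deleted. Only the cKO mice carried Mx1-cre, so effects of cre and of Bptf loss cannot be told apart here. The values are normalized counts, that is gene counts divided by 1 size factor per library, and 14091054 to 30134742 reads lay on listed genes in a library.

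Bptf itself had 5520 and 5850 normalized counts in the f/f libraries and 3398 and 3320 in the cKO libraries, where counts cover the whole gene and include exons outside the deleted exon. Its log2 fold change was -0.76 (SE 0.090, limma adjusted p = 0.0439). The log2 fold change lay between -0.80 and -0.72 when any 1 of the 4 libraries was left out. The adjusted p was 0.0531 in edgeR, 9.73e-08 in DESeq2 and 0.000154 in limma with the replicate number as a block. The paper reported that reads on the deleted exon were lacking in cKO. The LSK gate genes were present in every library, with 13634 to 17051 normalized counts of Kit and 726 to 1743 of Ly6a, which encodes SCA-1. The libraries numbered 2 stood apart from those numbered 1 in both genotypes. The summed level of 6 pluripotent cell markers was 866 and 1089 in the f/f and cKO libraries numbered 2 and 0.775 and 0 in those numbered 1, where 5 of these markers, Pou5f1, Nanog, Sox2, Zfp42 and Dppa5a, were at 0. Xist, which is transcribed from the inactive X chromosome of female cells, had 15675 and 11843 normalized counts in the f/f and cKO libraries numbered 2 and 0.775 and 3.25 in those numbered 1. The Y-linked Ddx3y was present in every library, with 456 and 769 in those numbered 2 and 1837 and 1835 in those numbered 1, so the pools differed in sex makeup along the replicate number. Other cell types also differed between libraries. The sum of 7 erythroid markers was 1005 and 1071 in f/f against 211 and 341 in cKO, and that of 8 granulocyte and monocyte markers was 45645 and 4260 in f/f against 14309 and 7189 in cKO. In such bulk samples, fewer cells of a type and less RNA per cell cannot be told apart.

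None of the 10 genes passed an adjusted p under 0.05 in limma. Over all tested genes 0.37% were called lower and 0.37% higher in cKO by that rule. edgeR and DESeq2 on the recovered reads also called 0 of the 10. With the replicate number as a block, limma called 2 higher, Kmt2d (adjusted p = 0.0290) and Rbbp5 (adjusted p = 0.0409), while that fit called 14.4% of all tested genes, and 6.03% as higher. At an unadjusted p under 0.05, 3 of the 10 (Rbbp5, Kmt2d and Setd1b) were higher and 0 were lower, against 6.79% higher and 8.96% lower over all tested genes. By library, 8 of the 10 lay higher in both cKO libraries than in both f/f libraries, against 23.2% of all tested genes. Men1 was the 1 gene that lay lower in both, against 23.8% of all tested genes, and Dpy30 overlapped. The median log2 fold change was 0.15 over the 10 genes and 0.0010 over all tested genes.

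The comparison was also made within each replicate number. Between the libraries numbered 1, 9 of the 10 genes had a positive log2 difference and the range was -0.16 to 0.48. Between the libraries numbered 2, 8 of 10 were positive and the range was -0.36 to 0.36. With TMM factors 7 of the 10 were higher in both cKO libraries, since Wdr5 then overlapped, and with libraries recentred on their medians 8 were, against 23.4% and 28.9% of all tested genes. Since 4 of the 10 genes have transcripts of at least 8 kb, 707 other genes with transcripts of at least 8 kb were examined as well. Of these, 26.6% were higher in both cKO libraries, and their median log2 fold change was 0.02.

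**Figure D1:**
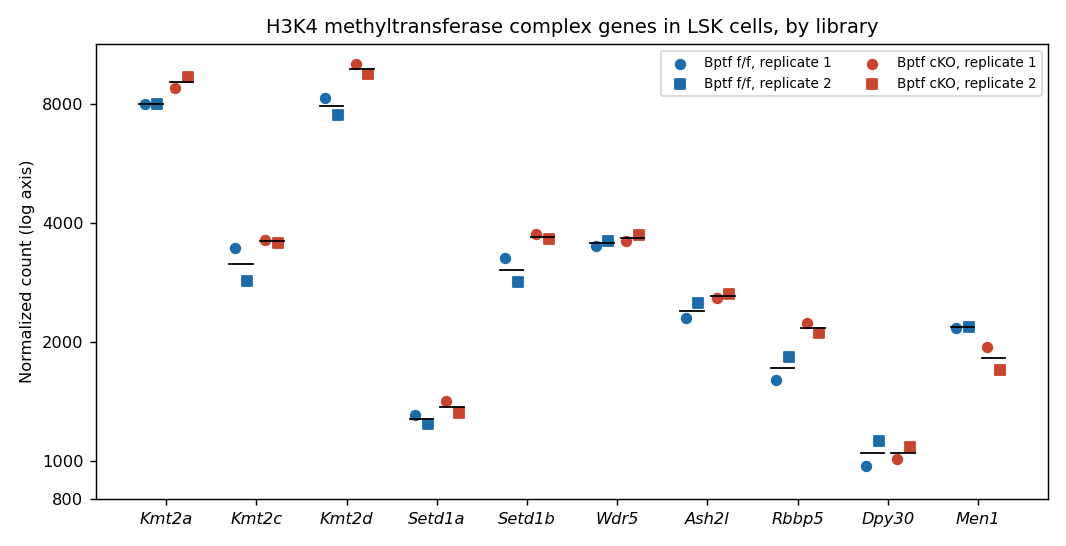
Normalized count (log axis) of each of the 10 genes in the 2 Bptf f/f libraries (blue) and the 2 Bptf cKO libraries (red), with circles for replicate 1, squares for replicate 2 and a black line for each mean. For 8 genes both red points lie above both blue points, for Men1 they lie below, and for Dpy30 they overlap; heights are not comparable between genes, since counts grow with transcript length.

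The region just before the start of a gene holds part of its promoter, and it is shown for the genes with the 2 highest fold changes, Rbbp5 and Kmt2d, and for Men1, whose fold change was the lowest. The sequences are the 150 bases before the RefSeq start (GRCm38.p6), written 5′ to 3′ on the strand of the gene. Capitals mark GGGCGG, the core of the GC box, and CCAAT, the core of the CCAAT box, on either strand. The windows lie at chr15:98871206-98871355 (minus strand) for Kmt2d, chr1:132477217-132477366 (plus strand) for Rbbp5 and chr19:6334829-6334978 (plus strand) for Men1.
Kmt2d: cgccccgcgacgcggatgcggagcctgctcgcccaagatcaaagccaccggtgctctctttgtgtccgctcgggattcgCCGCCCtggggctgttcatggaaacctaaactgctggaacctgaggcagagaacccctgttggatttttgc
Rbbp5: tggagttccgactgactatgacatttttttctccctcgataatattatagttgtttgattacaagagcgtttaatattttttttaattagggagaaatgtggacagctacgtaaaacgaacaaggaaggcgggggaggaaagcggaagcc
Men1: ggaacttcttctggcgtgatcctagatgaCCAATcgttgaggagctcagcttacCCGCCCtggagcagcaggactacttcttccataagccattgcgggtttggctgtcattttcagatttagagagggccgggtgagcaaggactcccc

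The 3 windows differ in base composition. GC content was 61.3% with 12 CpG sites in Kmt2d, 54.0% with 5 in Men1 and 39.3% with 7 in Rbbp5. Of the 10 genes, 8 had a window in the table and Setd1b and Ash2l did not. Over the first windows of these 8, the median GC content was 58% with 11.5 CpG sites, and over all 32851 windows of the table it was 54% with 4. The GC box letters stood in 5 of the 8 windows (Kmt2a, Kmt2c, Kmt2d, Wdr5 and Men1) and in 28.6% of all windows. The richest was that of Kmt2c, with 93.3% GC, 32 CpG sites and 8 matches. CCAAT stood in the window of Men1 alone among the 8 and in 24.5% of all windows. The letters TGANTCA, which AP-1 factors bind, stood in 0 of the 8 and in 4.24% of all. Men1 and Dpy30 had further windows at other starts. The 2 further windows of Men1 held no CCAAT, and the 3 of Dpy30 had 71.3% to 75.3% GC and 16 to 22 CpG sites, against 36.0% and 0 in its first. The matches describe only the letters in these windows.

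Among the enzymes, Kmt2d (chr15:98831669-98871204, minus strand) encodes the main monomethyltransferase of enhancers together with its paralog KMT2C. Kmt2d had 8264 and 7494 normalized counts in the f/f libraries and 10067 and 9508 in the cKO libraries. The groups did not overlap, and the gap between them was wider than the distance between the libraries of either group. The mean went from 7879 ± 545 (SD, n = 2) to 9787 ± 395 (SD, n = 2), a log2 fold change of 0.31 (SE 0.099, 95% interval 0.064 to 0.56) with a limma adjusted p of 0.238. Kmt2c (chr5:25271798-25498783, minus strand) had 3441 and 2850 normalized counts in f/f and 3622 and 3551 in cKO. Its f/f libraries differed more from each other than the higher of them did from the cKO libraries, and the log2 fold change was 0.20 (SE 0.12, limma adjusted p = 0.507). Without f/f library 1 it was 0.33, and without f/f library 2 it was 0.06. Its exons share 274 of 20291 bases with Gm42585 on the opposite strand, and whether counting used strand is not given in the sources used here.

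Kmt2a (chr9:44803355-44881296, minus strand), the MLL1 enzyme of hematopoietic stem cells, had nearly equal f/f libraries, with 7964 and 7997 normalized counts. Its cKO libraries were both higher, with 8768 and 9331. The log2 fold change was 0.18 (SE 0.089, 95% interval -0.045 to 0.41, limma adjusted p = 0.418). Its exons share 378 of 16670 bases with the antisense gene AC061963.1. On the list of other complex subunits, the paralog Kmt2b, which also binds menin and was named after its value was seen, had a log2 fold change of 0.09 (SE 0.090, limma adjusted p = 0.692).

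Setd1a and Setd1b encode the catalytic subunits of the SET1 complexes, which account for much of the H3K4 trimethylation of promoters. Setd1b (chr5:123142193-123168629, plus strand) had 3255 and 2829 normalized counts in f/f and 3732 and 3635 in cKO. The cKO libraries were close to each other and both above f/f, with a log2 fold change of 0.28 (SE 0.11, 95% interval 0.0081 to 0.55, limma adjusted p = 0.305). Setd1a (chr7:127776670-127800122, plus strand) had 1308 and 1235 normalized counts in f/f and 1418 and 1318 in cKO. The lower cKO library lay just above the higher f/f library, and the log2 fold change was 0.11 (SE 0.11, limma adjusted p = 0.705). Setd1a shares 3523 of its 6795 exon bases with Gm49388 on the same strand, so its counts may miss reads shared by both.

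The 5 enzymes thus all lay higher in both cKO libraries, against 23.2% of all tested genes. Of other genes with transcripts of at least 8 kb, 26.6% did. Log2 fold changes of the 5 enzymes ran from 0.11 to 0.31, and none passed a limma adjusted p under 0.05. Their summed level per kb of transcript was 1699 and 1564 in f/f and 1922 and 1897 in cKO, a ratio of means of 1.17. Within that sum, Kmt2a held 27.7% to 31.1% over the 4 libraries, Kmt2d 24.2% to 26.4% and Setd1b 20.4% to 21.9%. Kmt2c held 12.2% to 13.5% and Setd1a 10.7% to 12.2%, so the order of the 3 highest enzymes was the same in every library. Reads that Setd1a may miss on bases shared with Gm49388 would change these shares and the sum. The ratio of Kmt2d to Kmt2a per kb was 0.862 and 0.779 in f/f and 0.954 and 0.847 in cKO, and these groups overlapped.

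**Figure D2:**
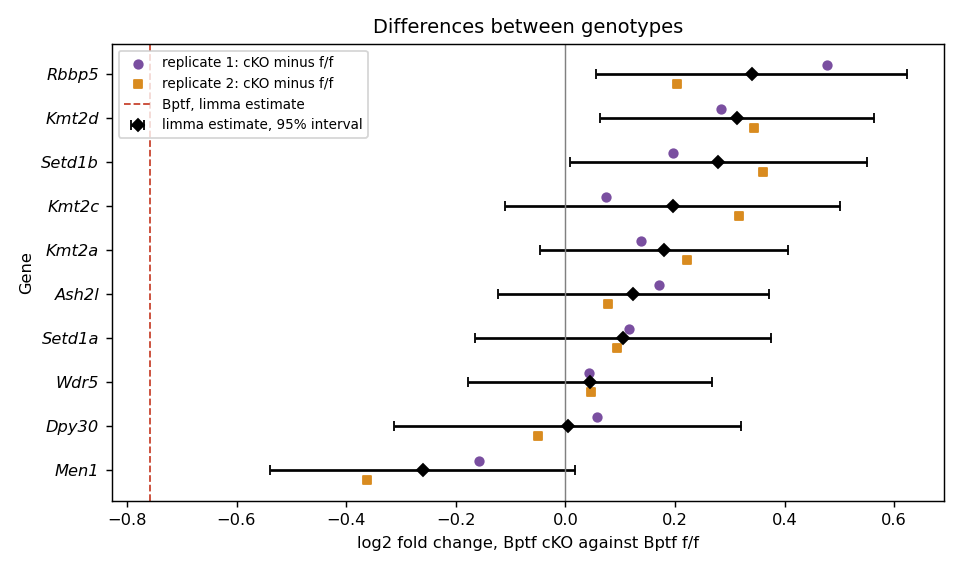
Log2 fold change (cKO relative to f/f) for each of the 10 genes, with the limma estimate and its 95% interval (black diamond and bar), the difference between the libraries numbered 1 (purple circle) and 2 (orange square), and the estimate for Bptf (dashed line). The estimates run from -0.26 for Men1 to 0.34 for Rbbp5, and the intervals of Rbbp5, Kmt2d and Setd1b lie above 0.

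Of the core subunits, Rbbp5 (chr1:132477365-132505659, plus strand) encodes the WD40 protein that joins ASH2L in contacting the SET domain and stimulating its activity. Rbbp5 had 1600 and 1824 normalized counts in the f/f libraries and 2227 and 2099 in the cKO libraries. The groups were clearly apart, although the 2 differences by replicate number were unequal, 0.48 and 0.20 on the log2 scale. The mean went from 1712 ± 158 to 2163 ± 89.9 (SD, n = 2 each). The log2 fold change was 0.34 (SE 0.11, 95% interval 0.057 to 0.62) with a limma adjusted p of 0.252, the highest estimate of the 10 genes and rank 2069 of the 14858 tested genes when ordered from the highest fold change.

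Ash2l (chr8:25815996-25847694, minus strand), which encodes the subunit that binds DPY30, had 2291 and 2499 normalized counts in f/f and 2578 and 2638 in cKO. The groups did not overlap, but the nearest libraries of the 2 groups were closer than the f/f libraries were to each other. The log2 fold change was 0.12 (SE 0.097, limma adjusted p = 0.612).

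Wdr5 (chr2:27515157-27536535, plus strand) encodes the subunit that binds the WIN motif of the enzymes and holds them to RBBP5. It had 3497 and 3597 normalized counts in f/f and 3601 and 3715 in cKO, which were nearly level. The log2 fold change was 0.05 (SE 0.088, 95% interval -0.18 to 0.27, limma adjusted p = 0.870). With TMM factors the counts were 3488 and 3601 against 3597 and 3723, and the groups then overlapped. A related gene, Wdr5b, is listed as well, so reads common to both could be split.

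Dpy30 (chr17:74299474-74323944, minus strand), whose product binds ASH2L and is needed for full H3K4 trimethylation in hematopoietic progenitors, had 970.5 and 1120 normalized counts in f/f and 1010 and 1082 in cKO. Both cKO libraries lay between the f/f libraries. The log2 fold change was 0.0041 (SE 0.13), with a 95% interval from -0.31 to 0.32 (limma adjusted p = 0.992).

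The 4 core subunits had estimates from 0.0041 to 0.34 with overlapping 95% intervals, and the differences between them were not tested. Ratios are given for Rbbp5, chosen as the subunit with the highest estimate. Relative to Wdr5 per kb, Rbbp5 was 0.391 and 0.433 in f/f and 0.528 and 0.482 in cKO. Relative to Ash2l per kb it was 0.682 and 0.713 in f/f and 0.844 and 0.777 in cKO. Both ratios lay higher in both cKO libraries, and neither depends on the size factors. Their direction largely follows from the choice of Rbbp5, and the share of other gene pairs that lay apart was not counted. The summed level of the 4 core subunits per kb was 3605 and 3958 in f/f and 3964 and 4075 in cKO, a ratio of means of 1.06.

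Men1 (chr19:6334979-6340891, plus strand) encodes menin, the subunit that links KMT2A and KMT2B to LEDGF and to chromatin. It had 2167 and 2177 normalized counts in f/f and 1943 and 1693 in cKO. The f/f libraries were nearly identical and both cKO libraries lay below them. Means were 2172 ± 7.14 and 1818 ± 176 (SD, n = 2 each). The estimate on the log2 scale was -0.26 (SE 0.11, 95% interval -0.54 to 0.018, limma adjusted p = 0.347). Of the 10 genes, Men1 alone had a negative estimate. Set against its partner enzyme per kb, the ratio of Men1 to Kmt2a was 1.51 and 1.51 in f/f and 1.23 and 1.00 in cKO. This ratio was lower in both cKO libraries and does not depend on the size factors. Its direction largely follows from the negative estimate of Men1, and the share of other gene pairs that lay apart was not counted.

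The lowest number of reads in a library ran from 767 for Dpy30 to 5770 for Kmt2a, which gives a counting SD of at most 3.61% and 1.32% of the value. The SD between the f/f libraries was below the counting SD for Men1 and Kmt2a. The 95% intervals had a median half-width of 0.27 on the log2 scale, so an estimate smaller than that could not be told from 0 with 2 libraries a group.

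Levels were compared between genes as normalized counts per kb of the longest coding transcript, as means over the 4 libraries. Dpy30 was the highest with 1325 ± 85.9 (SD, n = 4), followed by Wdr5 with 1246 ± 30.9, and their ranges overlapped. Ash2l was next with 756 ± 45.8, and its range of 693 to 798 lay below that of Wdr5, 1210 to 1285. Men1 (671 ± 76.8), Rbbp5 (572 ± 83.0), Kmt2a (517 ± 40.0), Kmt2d (446 ± 58.9) and Setd1b (380 ± 46.4) followed, each overlapping its neighbors. The lowest were Kmt2c with 225 ± 23.5 and Setd1a with 203 ± 11.6, which overlapped. The range of Kmt2c, 190 to 242, lay below that of Setd1b, 319 to 421. Setd1a may lack reads on the exon bases it shares with Gm49388, so its place and percentile are uncertain. The smaller core subunits and menin therefore stood above the enzymes on this scale, apart from Rbbp5, whose range overlapped those of Kmt2a and Kmt2d. Among the 14608 tested genes with a length, the 10 genes lay between percentile 52.3 (Setd1a) and 92.4 (Dpy30).

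**Figure D3:**
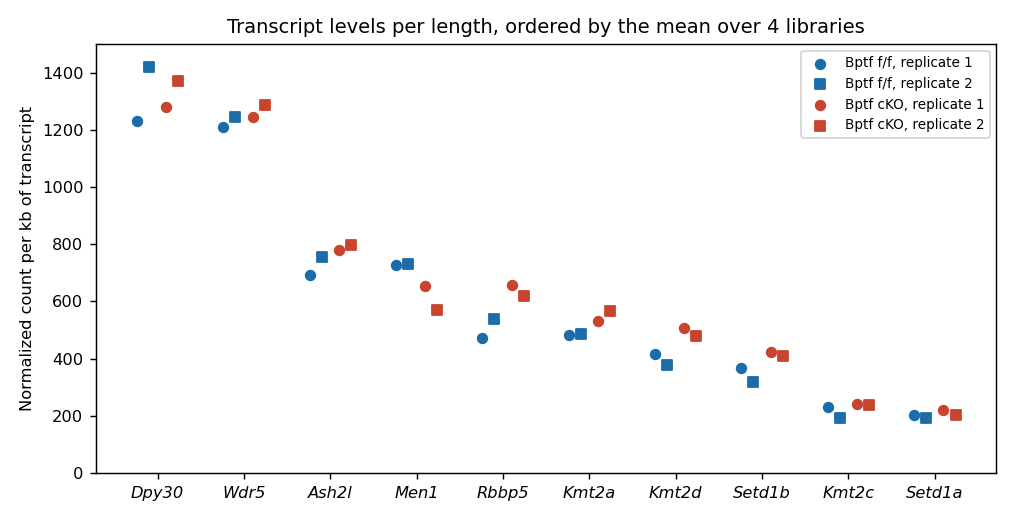
Normalized count per kb of transcript for each of the 10 genes in the 4 libraries (blue for Bptf f/f, red for Bptf cKO, circles for replicate 1 and squares for replicate 2), ordered by the mean. Dpy30 and Wdr5 lie above 1200, and Kmt2c and Setd1a lie below 250.

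The other genes of the pathway were given by 5 lists, of other complex subunits, other H3K4 methyltransferases, H3K4 demethylases, H3K4 methylation readers and the H2B ubiquitylation route that precedes H3K4 methylation. Of 55 genes, 52 were tested. None passed an adjusted p under 0.05 in limma without the block, edgeR or DESeq2. With the replicate number as a block, limma called 4 of the 52 lower and 2 higher, while that fit called 14.4% of all tested genes. At an unadjusted p under 0.05, 3 were lower and 3 higher, which is 5.77% in each direction, against 8.96% lower and 6.79% higher over all tested genes. Their median log2 fold change was 0.01, against 0.15 for the 10 complex genes.

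Of 12 tested other complex subunits, 2 were lower and 1 was higher at an unadjusted p under 0.05, and the median was 0.06. The highest estimates were those of Hcfc1, which encodes the host cell factor of the SET1 and KMT2A complexes (log2 fold change 0.25, SE 0.10, limma adjusted p = 0.317), and Bod1l (0.22, limma adjusted p = 0.364). The lowest were those of Psip1 and Bod1. Psip1 encodes LEDGF, the chromatin tether of KMT2A and menin, and had 4203 and 4629 normalized counts in f/f and 3766 and 3327 in cKO. Its log2 fold change was -0.32 (SE 0.11, limma adjusted p = 0.270). Psip1 lay lower in both cKO libraries, as did 23.8% of all tested genes. Of the 12 subunits, 2 lay lower and 4 higher in both cKO libraries. For Bod1 the estimate was -0.29 on the log2 scale (limma adjusted p = 0.551). Wdr82, a SET1 complex subunit named after its value was seen, had -0.27 (SE 0.089, limma adjusted p = 0.253). Of the 13 on the list, Pagr1a is not listed in the table.

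The 4 tested other methyltransferases had a median of -0.07, none at an unadjusted p under 0.05, with Setd7 at 0.14, Smyd3 at -0.06, Prdm9 at -0.07 and Smyd2 at -0.10. The 8 genes on the demethylase list include Rcor1, which encodes a cofactor of KDM1A and not a demethylase. Of these 8, 1 was lower at an unadjusted p under 0.05 and the median was 0.01. That gene was Kdm1a, which encodes LSD1 and removes H3K4 mono- and dimethylation, with 2987 and 3296 normalized counts in f/f and 2478 and 2517 in cKO (log2 fold change -0.33, SE 0.098, limma adjusted p = 0.219). Kdm5b was next at -0.12, and the highest were Kdm1b at 0.06 and the Y-linked Kdm5d at 0.36, whose libraries overlapped with 1242 and 370 in f/f and 1121 and 676 in cKO. As with Ddx3y, the libraries numbered 2 had the lower values of Kdm5d in both genotypes.

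Among 17 tested readers, 2 were higher at an unadjusted p under 0.05 and 0 lower, and the median was 0.02. They were Sgf29, which encodes a SAGA subunit that binds H3K4 trimethylation through Tudor domains, and Phf8, a PHD-finger demethylase. Sgf29 had 688 and 771 normalized counts in f/f and 982 and 1092 in cKO, a log2 fold change of 0.51 (SE 0.13, limma adjusted p = 0.169). For Phf8 the log2 fold change was 0.39 (limma adjusted p = 0.205). The lowest readers were Rag2 at -1.03 (SE 0.76), which lymphoid progenitors express and whose libraries overlapped, and Ing2 at -0.54 (SE 0.26). In the H2B ubiquitylation route, 0 of 11 genes had an unadjusted p under 0.05, with estimates from -0.21 (Ube2b) and -0.16 (Paf1) to 0.12 (Leo1) and 0.13 (Ube2a).

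**Figure D4:**
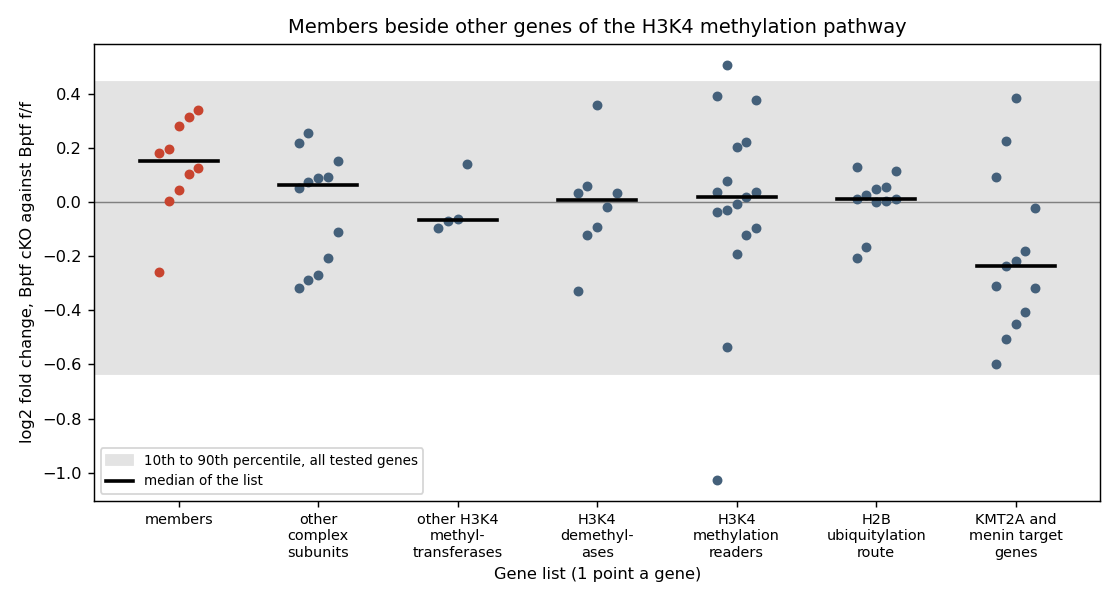
Log2 fold change (cKO relative to f/f) for each tested gene of the 10 complex genes (red) and of 6 other lists (blue), with the median of each list (black line) and the range from the 10th to the 90th percentile of all tested genes (gray, -0.63 to 0.44). The median of the complex genes was 0.15, those of the 5 H3K4 lists lay between -0.07 and 0.06, and that of the KMT2A and menin target genes was -0.24.

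Genes known as targets of KMT2A or menin were listed for comparison. Meis1 among them was singled out by the study from these same libraries, so the list is not independent evidence of its direction. Of 13 tested, 2 were lower and 0 higher at an unadjusted p under 0.05, against 8.96% and 6.79% of all tested genes. In both cKO libraries 5 lay lower and 1 higher, against 23.8% and 23.2%. The median log2 fold change was -0.24. Without the block, none had a limma or edgeR adjusted p under 0.05, and DESeq2 called 2 lower, against 500 of the 14858 tested genes. With the replicate number as a block, limma called 4 lower and 0 higher, against 1242 and 896 of all tested genes. Meis1, a homeobox gene of stem cells, had 4902 and 5560 normalized counts in f/f and 3579 and 3779 in cKO. Its log2 fold change was -0.51 (SE 0.10, limma adjusted p = 0.118, or 0.00228 in limma with the block). The paper also reported lower Meis1 in cKO LSK cells by qRT-PCR and lower accessibility of its promoter by ATAC-seq. The other gene at an unadjusted p under 0.05 was Mef2c, named after its value was seen, with a log2 fold change of -0.40 (SE 0.094, limma adjusted p = 0.144). Mecom, a stem cell zinc finger gene, had the lowest estimate, -0.60 (SE 0.42), and its libraries overlapped. The highest were Cdk6 at 0.39 (SE 0.33) and Hoxa7 at 0.23 (SE 0.12). Erythroid marker sums were also lower in both cKO libraries (211 and 341 against 1005 and 1071), and their part in these values and in those of the complex genes was not tested.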

How the data were processed

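The authors deposited 1 table with a signal per gene and library, gene counts divided by 1 size factor per library, whose mean stands beside them. It also holds their own comparison (fold change, standard error, statistic and p-values), which was not used. The submitters' processing notes name HISAT2, featureCounts, DESeq2 and the builds GRCm38 and mm10. Versions, annotation and strand setting are not given in the sources used here. Dividing each library by its smallest step gave whole reads for 100% of values (tolerance 0.01).

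Genes with a mean of at least 10 were compared on log2(normalized count + 1), so that fold changes are on that scale, with limma 3.58.1 in R 4.3.3 (mean-variance trend, genotype as the factor, all 4 libraries, two-sided, Benjamini-Hochberg over all tested genes). edgeR 4.0.16 and DESeq2 1.42.0 on the recovered reads, pseudocounts of 0.5 and 10, other filters and scalings, a replicate block and each library left out were alternatives. The fits were tested on simulated counts with planted changes larger than those of the complex genes and no deviation shared by replicate number. That test therefore does not cover differences as small as those reported here. The libraries are separate pools of mice, and p-values measure the spread between these libraries. Locations are from GENCODE vM21 (GRCm38) and promoter windows from RefSeq. Python 3.11.15, numpy 2.4.6, pandas 2.3.3 and matplotlib 3.10.9 summarised the fits.

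The members and lists were chosen with earlier results of these data known. Named genes were all members, Bptf, Kit, Ly6a and, per pathway list, each gene with a limma adjusted p under 0.05 and the 2 highest and 2 lowest fold changes with a mean of at least 100. Marker lists for 7 other cell classes were summed per library, and besides those in the report the sums in f/f 1, f/f 2, cKO 1 and cKO 2 were 5461, 1559, 3096 and 1916 for B cell, 5041, 2733, 4001 and 3438 for megakaryocyte, 27.1, 49.9, 14.3 and 46.6 for stromal and 126, 90.1, 79.9 and 50.8 for T cell markers, of which 1 of 5 was listed. The sums of 8 LSK markers were 53336, 43175, 41015 and 36944.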

Additional observations from a re-analysis of the deposited data

How the results depend on the processing

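The number of complex genes with an adjusted p under 0.05 was 0 under each alternative except the fit with the replicate block, which called 2 higher, Kmt2d (limma adjusted p = 0.0290) and Rbbp5 (limma adjusted p = 0.0409). That fit called 1242 genes lower and 896 higher in all, 14.4% of those tested, against 55 and 55 without the block. Libraries of 1 number deviated together, with a correlation of 0.452 over 14858 genes and 0.638 over the 10815 with a mean of at least 100. No label ties the numbers to a shared origin, although Xist and the pluripotent cell markers also differed by number in both genotypes. With only 2 pairs, the fit without the block is the one reported. It counts the shared deviation as error, so the calls depend on this choice. DESeq2 called 500 genes lower and 319 higher, and limma without the trend 0 and 2. Leaving out a library gave 0 to 41 genes lower and 1 to 76 higher, with 0 lower and 1 higher without either cKO library and 17 lower without f/f library 2; the lone library of a group is then assumed to vary like the other group. The cause was not tested. The median log2 fold change of the complex genes was 0.20 with libraries recentred on their medians, against 0.15. Dpy30 ranged from -0.10 to 0.11 with a library left out and was negative without f/f library 1 and without cKO library 2. With a library left out, log2 fold changes ranged from 0.06 to 0.33 for Kmt2c (lowest without f/f library 2), 0.18 to 0.38 for Setd1b (f/f 2), 0.05 to 0.16 for Setd1a (cKO 1), 0.06 to 0.19 for Ash2l (f/f 1) and 0.02 to 0.07 for Wdr5 (cKO 2), and Men1 was -0.16 without cKO library 2. Of 140 values of single complex genes under 14 alternatives, 136 kept their direction and their side of the threshold. The block, the fit without the trend and the filters leave the log2 fold change unchanged by construction. None of the complex genes passed in the fit reported, so this count says little about how stable the values are. For Bptf, limma without the trend gave an adjusted p of 0.178 and recentring gave 0.0547 (limma). The scaling alternatives of the overlap counts and those of Bptf were chosen after seeing the data.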
